A study of Mus musculus with 36 samples.

Results

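The cell cycle and DNA replication genes described here are a fixed list of 45 mouse genes, and every probe of the deposited value table whose gene symbol is on that list was taken, whatever its values. The table held a probe for 40 of the 45 genes, 64 probes of 23982 in all (40 genes of 14739 named ones). Of these genes 16 were grouped under S phase, when DNA is copied, and had 29 probes. That group includes genes that act before it, in origin licensing and at the step from G1 to S phase. The other 24 were grouped under G2 and mitosis (G2/M) and had 35 probes. Ccnb1, Gins1, Gins2, Aurkb and Mki67 had no probe in the table. There were 24 genes with 1 probe, 10 with 2, 4 with 3 and 2 with 4.

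Total RNA of spleen and liver was hybridised to 36 Illumina expression arrays, 18 for each tissue. All mice were male BALB/c that had received J558 cells, a myeloma line, under the skin of the neck, so no group was free of the tumour cell inoculation. The OPP groups drank oil palm phenolics, a polyphenol preparation, at 1500 ppm gallic acid equivalents (GAE), and the control groups drank distilled water. Each tissue and drink was sampled at 18 hours (age 6 weeks), 1 week (age 7 weeks) and 4 weeks (age 10 weeks) after inoculation, with 3 arrays for each of the 12 groups. Time and age therefore cannot be told apart. The treatment text of every sample names 4 weeks, whereas the time labels give 3 times, and the time labels were followed. The labels leave unsaid if the RNA of a replicate came from a single animal or from several, so the p-values measure the spread between arrays. Each value is a ratio: a probe's signal is divided by the median it had among the 18 arrays of that tissue. All values are given here on the log2 scale. Such ratios hold no absolute level, so neither genes nor tissues can be compared in level, and the labelled tissue could not be checked against its markers.

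Before S phase the MCM helicase is loaded on replication origins by Cdc6 and Cdt1, and cyclin E with Cdk2 and the Cdc45 and GINS factors start the forks. Cyclin A, cyclin B and Cdk1 then drive entry into mitosis, where Aurora and Polo-like kinases, the spindle checkpoint, kinesins and condensed chromosomes come into play. Most of these genes are transcribed chiefly in dividing cells, the S phase set through E2F factors and the G2/M set through the CHR element and CCAAT boxes. In an adult mouse the spleen holds dividing erythroid precursors and lymphocytes, while most hepatocytes of the liver rest outside the cycle.

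The promoters of 5 members are shown as examples: Mcm5 and Mcm6 changed in the liver, Birc5 had the widest range of group means in the spleen, and Cdk1 and Top2a stand for the mitotic genes. Each is the 250 bases before the gene's start from RefSeq (GRCm38.p6), written from 5′ to 3′ on the gene's strand, with matches to 3 motifs in capitals. They lie at chr8:75109259-75109508 (plus strand) for Mcm5, chr1:128359706-128359955 (minus strand) for Mcm6, chr10:69352913-69353162 (minus strand) for Cdk1, chr11:99024190-99024439 (minus strand) for Top2a and chr11:117848987-117849236 (plus strand) for Birc5.
Mcm5: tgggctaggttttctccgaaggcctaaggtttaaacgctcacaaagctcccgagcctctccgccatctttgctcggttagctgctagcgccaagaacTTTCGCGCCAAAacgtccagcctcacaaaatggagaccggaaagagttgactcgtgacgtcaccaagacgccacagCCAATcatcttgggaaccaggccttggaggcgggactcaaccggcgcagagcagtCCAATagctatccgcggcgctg
Mcm6: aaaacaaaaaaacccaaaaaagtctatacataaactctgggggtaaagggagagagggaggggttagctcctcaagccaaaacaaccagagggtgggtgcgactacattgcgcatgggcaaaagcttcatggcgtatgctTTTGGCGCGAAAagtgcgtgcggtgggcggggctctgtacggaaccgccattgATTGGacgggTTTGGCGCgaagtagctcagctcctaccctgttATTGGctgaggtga
Cdk1: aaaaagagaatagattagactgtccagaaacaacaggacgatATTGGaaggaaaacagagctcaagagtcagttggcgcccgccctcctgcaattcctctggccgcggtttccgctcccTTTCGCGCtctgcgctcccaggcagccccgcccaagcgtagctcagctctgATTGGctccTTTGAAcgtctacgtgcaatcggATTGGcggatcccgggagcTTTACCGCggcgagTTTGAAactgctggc
Top2a: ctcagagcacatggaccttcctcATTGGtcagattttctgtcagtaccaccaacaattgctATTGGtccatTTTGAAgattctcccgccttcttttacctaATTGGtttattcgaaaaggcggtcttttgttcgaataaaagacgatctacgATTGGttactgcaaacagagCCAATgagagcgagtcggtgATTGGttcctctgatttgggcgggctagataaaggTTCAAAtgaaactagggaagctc
Birc5: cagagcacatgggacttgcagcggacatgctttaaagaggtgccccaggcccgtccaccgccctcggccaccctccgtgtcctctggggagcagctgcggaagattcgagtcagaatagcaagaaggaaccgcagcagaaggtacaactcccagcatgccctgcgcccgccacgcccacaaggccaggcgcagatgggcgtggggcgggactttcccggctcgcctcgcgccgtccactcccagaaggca

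The motifs were TTTNNCGC for E2F, TTTGAA for the CHR and CCAAT for the CCAAT box, each searched on both strands, and matches on opposite strands can overlap, as the E2F matches of Mcm5 and Mcm6 do. The set of RefSeq promoters used here held 37 promoters for 35 of the 45 members, with 2 each for Mcm7 and Prc1. The other members, among them Mcm4 and Ccna2, had no entry in that set. The E2F letters were in 5 of 15 S phase promoters (33.3%) and 1 of 22 G2/M promoters (4.55%), against 4.28% of all 32851 promoters. The CHR letters were in 8 of 22 G2/M promoters (36.4%) and 2 of 15 S phase promoters (13.3%), against 16% of all. CCAAT was in 11 S phase promoters (73.3%) and 18 G2/M promoters (81.8%), against 33.8% of all. Cdk1 was the G2/M gene with the E2F letters, and Birc5 had none of the 3 motifs in this window. Cdt1, which also changed in the liver and whose promoter is not shown, had none of them either.

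Several spleen arrays stood apart. In replicate 3 of the water group at 1 week the median of the S phase probes was -0.72 and that of the G2/M probes -0.63, close to the 18 hour arrays, whereas replicates 1 and 2 of that group had 0.08 and 0.15 for S phase and 0.03 and 0.11 for G2/M. Hepatocyte markers were high in replicates 2 and 3 of the water group at 18 hours (list medians 1.72 and 1.36) and in replicate 1 of the OPP group at 1 week (1.19), against at most 0.26 on the other spleen arrays. Pancreatic acinar markers had a list median of -6.64 in replicate 2 of the water group at 1 week and -2.37 in replicate 1 of the OPP group at 1 week, against -0.91 to 0.52 on the other spleen arrays. The value of -6.64 is the log2 of 0.01, the lowest ratio in the value table, and may be a floor. The lowest ratio of a member probe was 0.287. In the liver that list stood at 4.78 in replicate 1 of the OPP group at 4 weeks, against -0.12 to 0.12 on the other liver arrays. Counts or medians without these arrays are given beside the comparisons of 2 groups that they enter.

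In the spleen the cell cycle genes were lowest at 18 hours and highest at 4 weeks by the middle array of each group, with either drink. In water mice the rise from 1 to 4 weeks was smaller without replicate 3 at 1 week. Its median was then 0.09 for S phase and 0.11 for G2/M, against 0.33 and 0.37 with all arrays. The S phase probes of OPP mice had array medians of -0.62, -0.90 and -0.45 at 18 hours, 0.00, -0.05 and 0.06 at 1 week, and 0.43, 0.34 and 0.41 at 4 weeks. Those of water mice had -0.38, -0.59 and -0.40 at 18 hours, 0.08, 0.15 and -0.72 at 1 week, and 0.34, 0.21 and 0.04 at 4 weeks. The G2/M medians of OPP mice were -0.57, -0.69 and -0.31 at 18 hours, 0.04, -0.07 and 0.06 at 1 week, and 0.42, 0.31 and 0.31 at 4 weeks. Those of water mice were -0.26, -0.47 and -0.26 at 18 hours, 0.03, 0.11 and -0.63 at 1 week, and 0.31, 0.18 and 0.18 at 4 weeks. At 4 weeks every array of a drink lay above every 18 hour array of that drink, for both phases. At 18 hours the S phase median lay further below 0 than the G2/M median on all 6 arrays, by 0.06 to 0.21. At 4 weeks the S phase median ran from 0.13 below to 0.10 above the G2/M median. As each probe is set to its own median, these gaps are not differences in level between the phases.

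**Figure D1:**
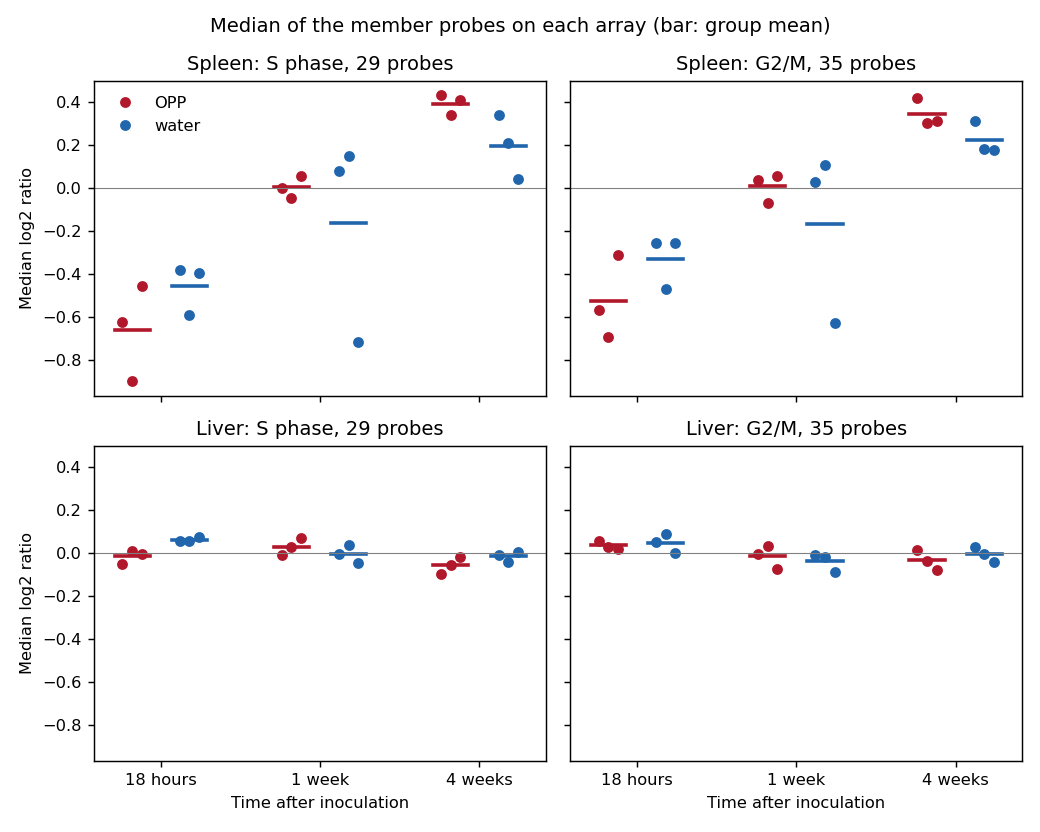
Median log2 ratio of the 29 S phase probes (left) and 35 G2/M probes (right) on each array of spleen (top) and liver (bottom), by time after inoculation, with OPP arrays left of water arrays and a bar at each group mean. In the spleen all 4 week arrays lie above all 18 hour arrays and 1 water array at 1 week lies at -0.72 (S phase), while all liver medians lie between -0.10 and 0.09.

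Between 18 hours and 4 weeks, 35 of 40 genes rose in OPP mice (53 of 64 probes, 82.8%) and 32 of 40 rose in water mice (44 probes, 68.8%), at an adjusted p under 0.05 by limma with Benjamini-Hochberg adjustment over all probes. No member fell. Of all probes, 27.0% rose in OPP mice and 23.0% rose in water mice by the same test. All 16 S phase genes rose with both drinks, and of the 24 G2/M genes 19 rose in OPP mice and 16 in water mice. The median difference was 1.09 for S phase and 0.93 for G2/M in OPP mice, against 0.11 over all probes. It was 0.76 for S phase and 0.59 for G2/M in water mice, against 0.14 over all probes. With each array centred on its own median, which removes these shifts of all probes, 34 genes rose in OPP mice and 25 in water mice. The share of all probes that rose in that centred fit was not recorded. Whether the OPP effect differed between times was tested separately and is given with the OPP comparisons.

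Among the genes of the replication clamp and nucleotide supply, all 4 rose with both drinks. Tyms, which makes thymidylate, had log2 ratios of -0.96, -1.31 and -0.70 at 18 hours, -0.06, -0.10 and 0.22 at 1 week and 0.85, 0.63 and 0.88 at 4 weeks in OPP mice. In water mice it had -0.82, -1.17 and -0.80 at 18 hours, 0.06, 0.15 and -1.05 at 1 week and 0.22, 0.35 and 0.30 at 4 weeks. The 4 week and 18 hour arrays of Tyms did not overlap with either drink, and the OPP arrays at 4 weeks were all above the water arrays. The rise from 18 hours to 4 weeks was 3.44-fold in OPP mice (log2 1.78, SE 0.22, adjusted p = 1.02e-05 by limma) and 2.34-fold in water mice (log2 1.23, SE 0.22, adjusted p = 0.00132 by limma). The other 3 Tyms probes had smaller differences, down to 0.39 in OPP mice and 0.21 in water mice, so the size depends on the probe.

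Pcna, the sliding clamp of the replication fork, had -0.82, -0.93 and -0.48 at 18 hours, -0.01, -0.06 and 0.01 at 1 week and 0.64, 0.46 and 0.57 at 4 weeks in OPP mice. In water mice Pcna had -0.25, -0.70 and -0.57 at 18 hours, 0.09, 0.16 and -0.64 at 1 week and 0.65, 0.57 and 0.29 at 4 weeks. Its rise was 2.46-fold in OPP mice and 2.01-fold in water mice, and its 4 week arrays of the 2 drinks overlapped. Rrm1 and Rrm2 encode the subunits of ribonucleotide reductase, which makes deoxyribonucleotides. Rrm1 rose by 1.32 in OPP mice and 0.97 in water mice on the log2 scale. Rrm2 on 1 probe had -1.01, -1.25 and -0.38 at 18 hours, -0.03, -0.20 and 0.03 at 1 week and 0.31, 0.10 and 0.20 at 4 weeks in OPP mice. In water mice that probe had -0.60, -1.09 and -0.62 at 18 hours, 0.18, 0.37 and -0.84 at 1 week and 0.46, 0.27 and 0.19 at 4 weeks. Its 4 week arrays lay above its 18 hour arrays with both drinks, and the 2 probes of Rrm2 rose by 1.09 and 1.05 in OPP mice and by 1.08 and 0.58 in water mice.

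All 6 MCM helicase genes rose over the same interval with both drinks, with a median of 1.12 over their 10 probes in OPP mice and 0.78 in water mice. Mcm5 had -0.58, -0.90 and -0.65 at 18 hours, -0.04, 0.04 and 0.15 at 1 week and 0.43, 0.39 and 0.62 at 4 weeks in OPP mice. In water mice Mcm5 had -0.38, -0.59 and -0.38 at 18 hours, 0.18, 0.26 and -0.57 at 1 week and 0.34, 0.11 and -0.08 at 4 weeks. The 4 week and 18 hour arrays of Mcm5 did not overlap with either drink, and at 4 weeks the OPP arrays were all above the water arrays. The difference was 1.19 (SE 0.17) in OPP mice and 0.57 (SE 0.17) in water mice. Mcm3 rose by 1.09 in OPP mice and 0.85 in water mice, and the wider probes of Mcm4 and Mcm7 by 1.35 and 1.15 in OPP mice and by 0.77 and 0.92 in water mice. Mcm2 rose 2.82-fold in OPP mice and 1.93-fold in water mice, and Mcm6 on its probe of largest change in OPP mice 2.61-fold there and 1.73-fold in water mice. Of the other MCM probes, 1 each for Mcm4, Mcm6 and Mcm7 was not called in water mice.

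The 3 licensing and firing genes with a probe rose with both drinks. Cdc6, the loader of the helicase, rose by 1.64 (SE 0.23) in OPP mice and 1.00 (SE 0.23) in water mice on 1 probe, and on the other by 0.38 in OPP mice, against a difference of 0.17 in water mice that was not called. Cdt1, its partner in loading, rose by 1.12 in OPP mice and 0.80 in water mice. Cdc45, which joins the helicase when forks start, rose on both probes, by 0.72 and 0.35 in OPP mice and by 0.38 and 0.44 in water mice. Among the cyclin E group, Ccne1 rose 2.83-fold in OPP mice and 2.33-fold in water mice, and Ccne2 rose 2.38-fold in OPP mice and 1.69-fold in water mice. Cdk2, the kinase partner of cyclin E, rose on 3 of its 4 probes with each drink, by up to 1.49 in OPP mice and 0.76 in water mice.

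**Figure D2:**
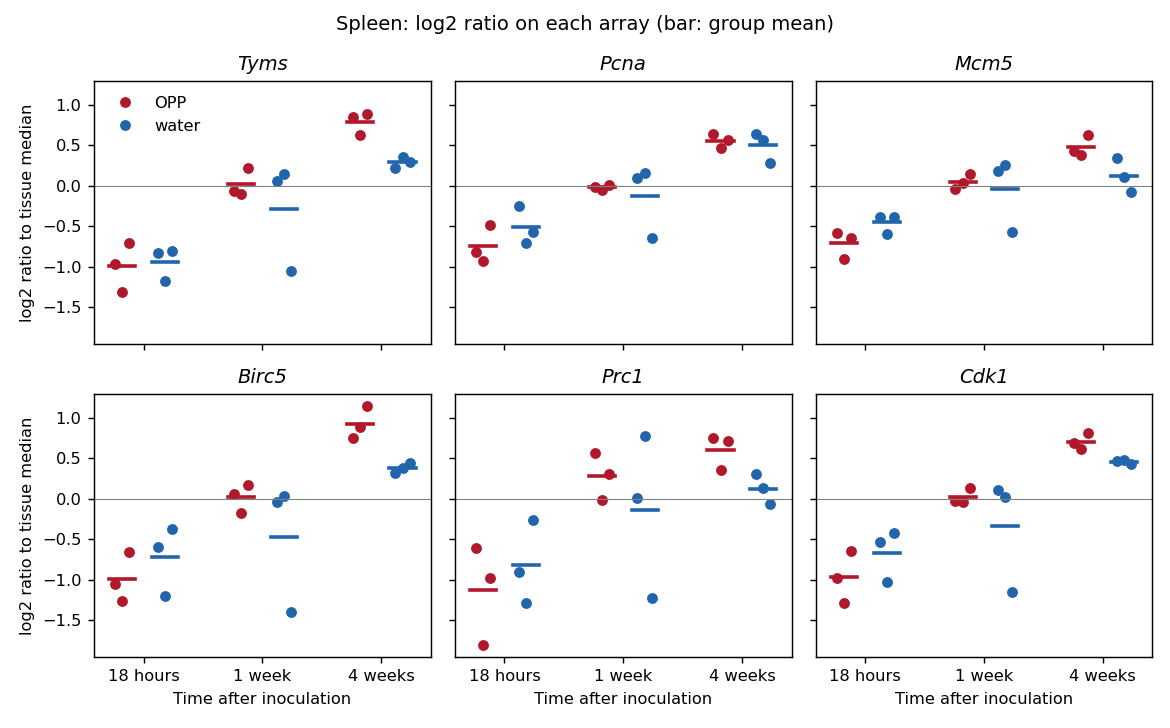
log2 ratio of 6 members on each spleen array by time after inoculation, with OPP arrays left of water arrays and a bar at the group mean; for genes of several probes the one with the widest range of group means is drawn. Values run upward from 18 hours to 4 weeks in all 6 genes, and 1 water array at 1 week lies near the 18 hour values (Tyms -1.05, Cdk1 -1.15).

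The mitotic regulators were less uniform. Cdk1, the mitotic kinase, had -0.97, -1.29 and -0.64 at 18 hours, -0.02, -0.04 and 0.14 at 1 week and 0.70, 0.61 and 0.81 at 4 weeks in OPP mice on its probe of smaller p. In water mice that probe had -0.54, -1.03 and -0.43 at 18 hours, 0.11, 0.02 and -1.15 at 1 week and 0.47, 0.48 and 0.43 at 4 weeks. It rose 3.19-fold in OPP mice (log2 1.68, SE 0.23, adjusted p = 2.41e-05 by limma) and 2.18-fold in water mice (log2 1.12, SE 0.23, adjusted p = 0.00263 by limma). The second Cdk1 probe differed by 0.06 in OPP mice and 0.00 in water mice, so the 2 probes of this gene disagree. Ccna2, the cyclin of S phase and early mitosis, rose by 1.09 in OPP mice and 1.10 in water mice. Foxm1, a transcription factor of mitotic genes, rose on both probes with both drinks, by 0.51 to 0.92. Cdc25c, the phosphatase that activates Cdk1, was called in OPP mice on 2 of 3 probes and in water mice on none, with a largest difference of 0.57 in OPP mice and 0.41 in water mice. Ccnb2, a cyclin B, differed by 0.07 in OPP mice and 0.15 in water mice and was not called.

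Of the mitotic kinase and passenger group, all 5 genes rose in OPP mice and 4 in water mice. Birc5, or survivin, a subunit of the chromosomal passenger complex, rose on all 3 probes with both drinks. Its widest probe had -1.05, -1.25 and -0.66 at 18 hours, 0.06, -0.17 and 0.18 at 1 week and 0.75, 0.89 and 1.15 at 4 weeks in OPP mice. In water mice that probe had -0.59, -1.20 and -0.37 at 18 hours, -0.03, 0.03 and -1.39 at 1 week and 0.32, 0.38 and 0.45 at 4 weeks. This is a rise of 3.77-fold in OPP mice (log2 1.92, SE 0.27) and 2.15-fold in water mice (log2 1.10, SE 0.27). Tpx2, which activates Aurora A on the spindle, rose by 1.27 in OPP mice and 0.81 in water mice, and Aurka, Aurora A itself, by 1.16 in OPP mice and 0.76 in water mice. Plk1 rose on 1 of 2 probes in OPP mice and on both in water mice. Melk, a kinase of dividing cells, rose in OPP mice on 1 of 2 probes (0.43) and had at most 0.28 in water mice.

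The spindle checkpoint and anaphase promoting complex held 5 called genes of 6 with both drinks. Ube2c, the ubiquitin-conjugating enzyme of that complex, rose by 1.00 in OPP mice and 0.94 in water mice. Cdc20, its activator, rose on 3 of 3 probes in OPP mice (0.38 to 1.07) and on 1 of 3 in water mice (0.86). Mad2l1, Bub1b and Ttk rose by 0.81 to 0.99 in OPP mice and 0.55 to 0.70 in water mice, whereas Bub1 differed by 0.07 in OPP mice and -0.02 in water mice. Among kinesins and midzone genes Prc1, which bundles midzone microtubules, had -0.60, -1.80 and -0.97 at 18 hours, 0.56, -0.01 and 0.31 at 1 week and 0.75, 0.36 and 0.71 at 4 weeks in OPP mice. In water mice Prc1 had -0.90, -1.28 and -0.26 at 18 hours, 0.01, 0.78 and -1.22 at 1 week and 0.31, 0.13 and -0.07 at 4 weeks. Its rise of 1.73 in OPP mice passed the test (SE 0.36, adjusted p = 0.000886 by limma), and its difference of 0.93 in water mice did not (SE 0.36, adjusted p = 0.0645 by limma).

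Kif23, a kinesin of the midzone, rose by 1.06 in OPP mice and 0.70 in water mice. Nusap1, a spindle microtubule protein, rose by 1.23 and 1.38 in OPP mice and 0.83 and 1.15 in water mice on its 2 probes. Top2a, the topoisomerase that untangles mitotic chromosomes, had -0.86, -1.07 and -0.45 at 18 hours, 0.15, -0.02 and -0.03 at 1 week and 0.44, 0.40 and 0.48 at 4 weeks in OPP mice. In water mice Top2a had -0.45, -0.82 and -0.46 at 18 hours, 0.21, 0.40 and -0.79 at 1 week and 0.60, 0.26 and 0.02 at 4 weeks, again with no overlap between 4 weeks and 18 hours. Its rise was 1.23 in OPP mice and 0.87 in water mice, and Cenpa, the centromeric histone, rose by 1.16 in OPP mice and 0.80 in water mice. Bub1, Ccnb2, Cenpe, Kif11 and Kif20a, each with 1 probe and all of G2/M, passed the test in none of the 9 spleen comparisons, and their group means ranged over 0.16 to 0.34. Whether those probes lie near background cannot be read from ratios. Among the 16 genes of several probes, all probes were called in 10 in OPP mice and in 6 in water mice.

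**Figure D3:**
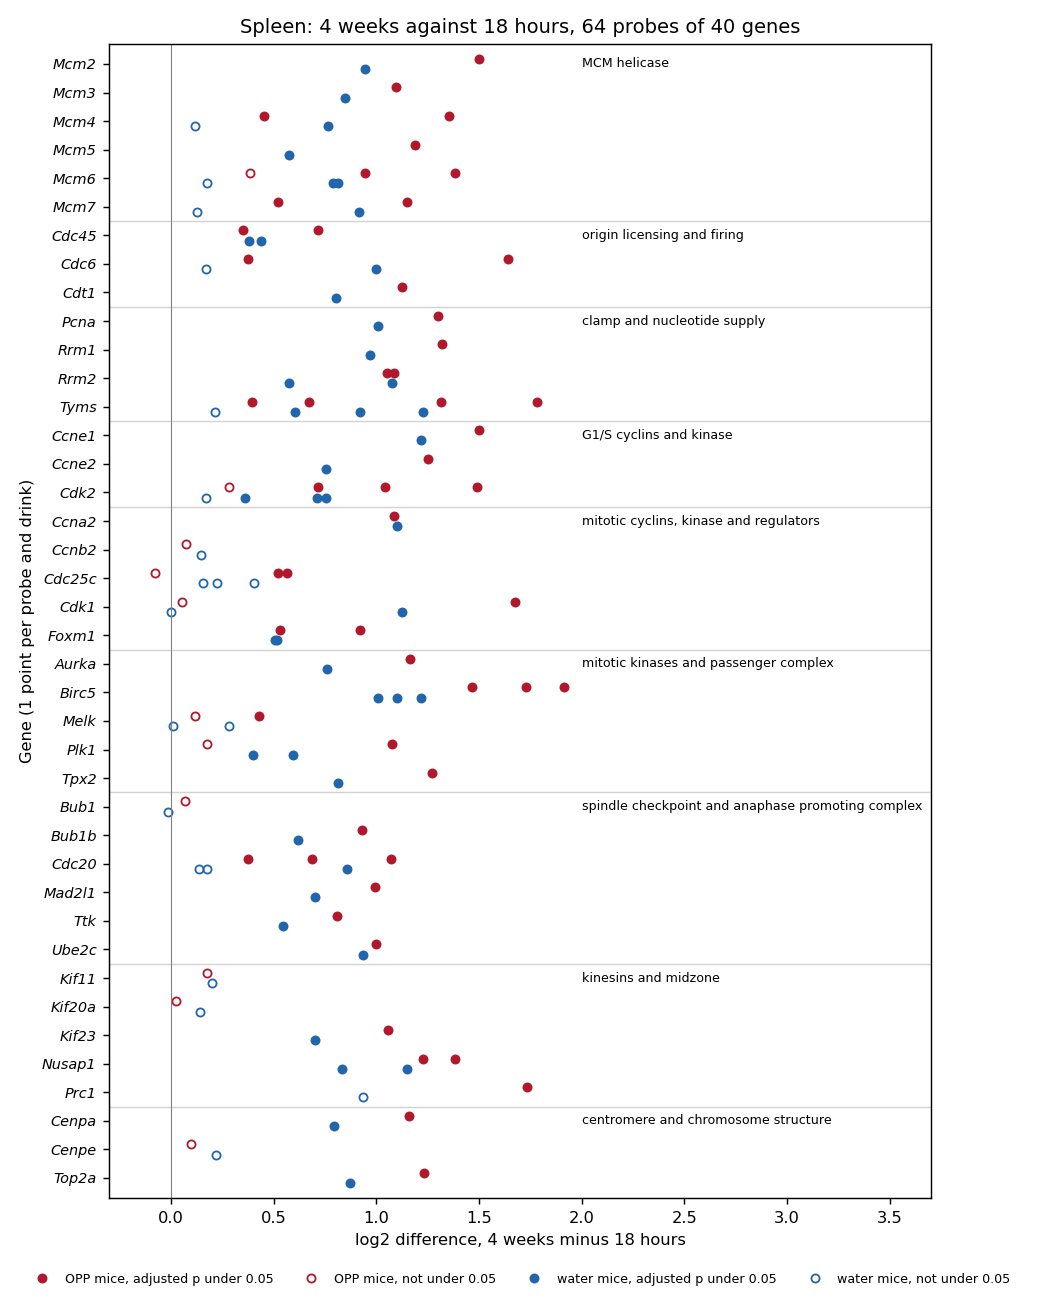
Difference in log2 ratio between 4 weeks and 18 hours in the spleen (horizontal axis) for each probe of the 40 genes grouped by role, with OPP mice above water mice in each row and filled points at an adjusted p under 0.05. All S phase probes lie to the right of 0 with both drinks, and Bub1, Ccnb2, Cenpe, Kif11 and Kif20a have open points only.

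The interval was divided at 1 week. In the first week 20 genes rose in OPP mice (25 probes, 39.1%, against 2.32% of all probes), 11 of 16 for S phase and 9 of 24 for G2/M, with medians of 0.64 for S phase and 0.54 for G2/M. The S phase genes of largest rise were Cdc6 (1.16, SE 0.23), Ccne1 (1.16, SE 0.19), Tyms (1.01, SE 0.22), Mcm2 (0.99), Rrm1 (0.96) and Mcm6 (0.93). Those of G2/M were Prc1 (1.41, SE 0.36), Birc5 (0.97 to 1.01 on its 3 probes), Cdk1 (0.99, SE 0.23), Nusap1 (0.94 and 0.68 on its 2 probes), Tpx2 (0.86), Top2a (0.83) and Aurka (0.79). That count falls to 1 gene without OPP replicate 2 at 18 hours, or without OPP replicate 1 or replicate 3 at 1 week, while the medians stay at 0.43 or more, and to 0 without the hepatocyte-high arrays (medians 0.64 for S phase and 0.52 for G2/M). In water mice 1 gene rose over that week, Ccne1 by 0.83 (SE 0.19, adjusted p = 0.0441 by limma), against 0.0959% of all probes, with medians of 0.40 for S phase and 0.23 for G2/M. Without water replicate 3 at 1 week 30 genes rose in water mice, with the share of all probes not recorded. The medians were then 0.67 for S phase and 0.51 for G2/M. Without water replicate 2 at 1 week the medians were 0.23 for S phase and 0.07 for G2/M. Without the hepatocyte-high arrays, which leaves 1 water array at 18 hours, they were 0.26 for S phase and 0.13 for G2/M. The Ccne1 call was lost without water replicate 1 or replicate 2 at 1 week, and without any 1 of the water arrays at 18 hours. It was also lost with only the arrays compared and with the probes of a gene averaged.

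Between 1 and 4 weeks 14 genes rose in OPP mice (17 probes, 26.6%), close to the 28.8% of all probes that rose. In water mice 10 genes rose (18.8% of probes, against 24.4% of all), 8 of them of G2/M, and the second Cdk1 probe fell by 0.40 (1.68% of all probes fell) while the first rose by 0.80. These shares of called probes are near or below the background. With arrays centred on their median the counts were 3 in OPP mice and 4 in water mice. By arrays that did not overlap, 70.3% of member probes were higher at 4 weeks in OPP mice, against 43.8% of all. In water mice 26.6% were, against 35.2% of all. The medians were 0.40 for S phase and 0.35 for G2/M in OPP mice, against 0.17 over all probes. In water mice they were 0.33 and 0.37, against 0.15. In OPP mice the S phase genes of largest rise were Tyms (0.77), Cdk2 (0.65), Ccne2 (0.63), Pcna (0.58), Mcm7 (0.57) and Rrm2 (0.52), and the G2/M genes that rose included Birc5 (0.90), Cdk1 (0.68), Cenpa and Nusap1 (0.54 each) and Plk1 (0.32). In water mice the 10 genes were Pcna (0.63) and Cdc45 (0.33) for S phase, and for G2/M Nusap1 (0.93), Birc5 (0.77 and 0.85 on 2 probes), Cdk1 (0.80), Ccna2 (0.69), Ube2c (0.68), Tpx2 (0.57), Foxm1 (0.53) and Plk1 (0.39). Without water replicate 3 at 1 week the medians in water mice were 0.09 for S phase and 0.11 for G2/M, against 0.33 and 0.37 with it. Without water replicate 2 at 1 week 23 genes passed in water mice, with the share of all probes not recorded. The medians were then 0.51 for S phase and 0.56 for G2/M. Without the hepatocyte-high array of OPP mice at 1 week 7 genes rose in OPP mice.

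Other genes of replication and mitosis were taken from lists that share no gene with the members. By 4 weeks, against 18 hours, 29 of 35 other DNA replication genes rose in OPP mice (74.5% of their probes) and 26 in water mice (62.7%), with a median of 0.94 in OPP mice and 0.63 in water mice. These shares of probes, and those that follow, stand beside the 27.0% in OPP mice and 23.0% in water mice of all probes that rose, and the 1.05% in OPP mice and 1.34% in water mice that fell. They included Tk1, thymidine kinase (1.47 in OPP mice, 0.96 in water mice on the same probe), and Fen1, the flap endonuclease (1.42 in OPP mice, 0.98 in water mice). Of 35 other mitosis genes 26 rose (63.8% of probes) and 1 fell in OPP mice and 27 rose in water mice (59.6%), among them Spc25 of the kinetochore (1.67 in OPP mice, 1.03 in water mice), and the one that fell was Gtse1 (-2.40, SE 0.76). Of 22 G1 cyclins, kinases, inhibitors and pocket proteins 13 rose in OPP mice (47.4% of probes), and 11 rose (31.6%) and 1 fell in water mice, with the inhibitor Cdkn2c at 1.29 in OPP mice and 1.07 in water mice. These lists were chosen with earlier results of the same arrays known.

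Markers of erythroid cells moved with these genes. Of 13 erythroid genes 11 rose in OPP mice (82.4% of probes) and 10 in water mice (76.5%) between 18 hours and 4 weeks, among them Rhag, a red cell membrane protein, and Tfrc, the transferrin receptor (1.66 in OPP mice, 1.12 in water mice). The erythroid list median ran from -1.15 to -0.36 in OPP mice and -0.96 to -0.53 in water mice at 18 hours, from -0.11 to 0.04 in OPP mice and -0.78 to 0.04 in water mice at 1 week, and from 0.30 to 0.52 in OPP mice and 0.21 to 0.31 in water mice at 4 weeks. The array at -0.78 was water replicate 3 at 1 week. Of 7 B cell genes 4 rose in OPP mice (54.5% of probes) and 5 in water mice (63.6%). Of 8 NK cell genes 3 rose in OPP mice (27.3%) and 6 in water mice (63.6%), of 8 plasma cell genes 1 rose in OPP mice (10.0%) and 5 in water mice (50%), and of 8 T cell genes 3 rose in OPP mice (27.3%) and 2 in water mice (18.2%). Of 6 germinal centre B cell genes 3 rose in OPP mice (42.9%) and 2 in water mice (28.6%), and of 6 leukocyte genes 3 rose in OPP mice (33.3%) and 6 in water mice (77.8%). In water mice the NK cell list median ran from 0.14 to 0.32 at 4 weeks and from -0.18 to -0.08 at 18 hours, that of plasma cells from 0.24 to 0.34 at 4 weeks and from -0.16 to 0.06 at 18 hours, and that of T cells from 0.09 to 0.33 at 4 weeks and from -0.12 to 0.02 at 18 hours. Of 10 macrophage genes 4 rose in OPP mice (33.3%) and 1 fell in water mice (8.33%), and of 12 hepatocyte genes 1 rose in OPP mice (6.67%) and 5 fell in water mice (40%). Of 12 neutrophil genes 10 fell in water mice (80.0% of probes), and the median difference of that list was -0.43 in OPP mice and -1.02 in water mice. The 6 megakaryocyte and 6 acinar genes had 1 call between them, a rise of Ppbp in OPP mice. In bulk RNA fewer cells of a type and less RNA per cell cannot be told apart, and the part of these cell types in the result was not tested.

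Without the 3 hepatocyte-high arrays, which leaves 1 water array at 18 hours and was chosen after the data were seen, no member passed between 18 hours and 4 weeks in water mice, and the medians were 0.63 for S phase and 0.39 for G2/M. No 18 hour or 4 week array of OPP mice is among those 3. Without each array in turn, the count between 18 hours and 4 weeks stayed at 34 to 35 genes in OPP mice and 22 to 32 in water mice.

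The direct comparison of OPP with water asks whether the extract changed these genes at a given time. No member passed the test at 18 hours, 1 week or 4 weeks in the spleen, where 0%, 0.00834% and 0.334% of all probes passed by limma. At an unadjusted p under 0.05 there was 1 member probe at 18 hours (1.56%, against 10.9% of all) and there were 6 at 1 week (9.38%, against 10.2% of all). The median differences for S phase and G2/M were -0.16 and -0.18 at 18 hours, 0.15 and 0.11 at 1 week, and 0.18 and 0.10 at 4 weeks. Without the hepatocyte-high arrays they were -0.30 and -0.25 at 18 hours, with 1 water array left, and 0.14 and 0.09 at 1 week, and no member passed. At 1 week they turned to -0.11 and -0.12 without water replicate 3 and were 0.31 and 0.32 without water replicate 2. Leaving out each array in turn, the 18 hour medians ran from -0.27 to -0.08 for S phase and from -0.29 to -0.07 for G2/M, and the 4 week medians from 0.12 to 0.23 for S phase and from 0.08 to 0.17 for G2/M. The F test of whether the OPP effect differed between times called no member (0.00417% of all probes), and 2 member probes, of Cdc20 and Cdk2, had an unadjusted p under 0.05 (3.12%, against 6.94% of all probes).

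At 4 weeks in the spleen 19 of 64 member probes were higher on every OPP array than on every water array, 29.7%, against 10.1% of all probes, and 3 were lower, against 10.6%. Cdc20 came nearest to a call, with 0.41, 0.40 and 0.50 in OPP mice against -0.09, 0.05 and 0.07 in water mice (difference 0.43, SE 0.11, adjusted p = 0.116 by limma). Ccne2 had 0.39, 0.42 and 0.76 in OPP mice against 0.03, 0.02 and 0.01 in water mice (difference 0.51, SE 0.18, adjusted p = 0.299 by limma). Neither gene's arrays overlapped, and the same held for Tyms on 3 of 4 probes and Birc5 on 3 of 3. Plk1 on 1 probe was lower (-0.25, SE 0.11), and so were Ube2c (-0.19) and Kif20a (-0.15). Without an adjustment, 9 member probes had p under 0.05 (14.1%, against 8.87% of all). With a fit to these 2 groups alone 7 genes passed, all higher in OPP mice, and 7 passed with array weights. The share of all probes that passed in those fits was not recorded, so these counts cannot be set against the background.

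At 18 hours in the spleen the members of smallest p were Cenpe (0.24, SE 0.09) and Cdc25c (0.21, SE 0.10), both higher in OPP mice, and Mcm4 (-0.25, SE 0.13) and Cdk2 (-0.22, SE 0.12), both lower, with adjusted p of 0.429 or more by limma. At 1 week they were Cdk2 (0.34, SE 0.13), Mcm6 (0.35, SE 0.16), Cdc20 (0.33, SE 0.13) and Cdc25c (0.30, SE 0.13), with adjusted p of 0.351 or more by limma.

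**Figure D4:**
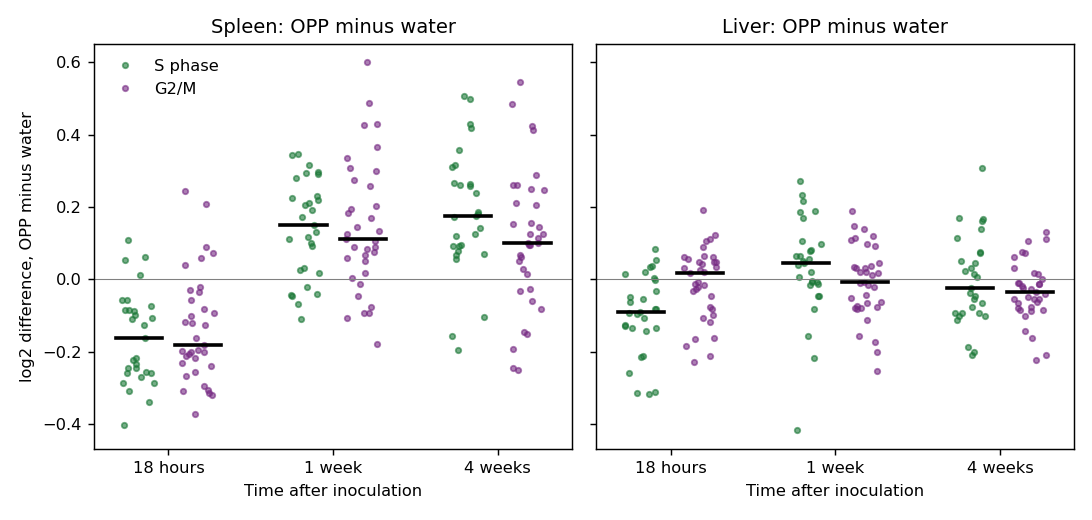
Difference in log2 ratio between OPP and water for each member probe in spleen (left) and liver (right) at each time, S phase left of G2/M, with a bar at the median of the probes. The spleen medians are below 0 at 18 hours (-0.16 and -0.18) and above 0 later (0.10 to 0.18), and the liver medians lie between -0.09 and 0.05.

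In the liver the members as a whole stayed near their median. The phase medians of single arrays lay between -0.10 and 0.08 for S phase and between -0.08 and 0.09 for G2/M, and 29 of the 40 genes passed in none of the 9 comparisons. The share of all genes that passed in any of the 9 was not recorded, so this count has no background beside it. Of the 11 members that passed in any comparison 6 were helicase or licensing genes. Among these Mcm5, Mcm6 and Cdt1 fell between 18 hours and 4 weeks with both drinks. Mcm5 had 0.73, 0.98 and 0.97 at 18 hours, 0.00, 0.42 and -0.17 at 1 week and -0.23, -0.16 and -0.05 at 4 weeks in OPP mice. In water mice Mcm5 had 1.45, 1.11 and 1.07 at 18 hours, -0.21, 0.16 and 0.00 at 1 week and -0.14, -0.36 and -0.43 at 4 weeks. All 18 hour arrays lay above all later arrays with both drinks. Mcm5 at 4 weeks was 0.486 of its 18 hour level in OPP mice (log2 -1.04, SE 0.14, adjusted p = 6.11e-05 by limma) and 0.349 of it in water mice (log2 -1.52, SE 0.14, adjusted p = 2.1e-06 by limma).

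At 4 weeks, relative to 18 hours, 7 members had fallen and 1 had risen in OPP mice, against 3.16% of all probes that fell and 13.7% that rose (members 10.9% and 3.12% of probes). Without the acinar-high array of OPP mice at 4 weeks 7 members passed in OPP mice. Over the same interval 6 fell and none rose in water mice (9.38% of probes, against 3.29% of all that fell). Mcm6 had 0.13, 0.40 and 0.14 at 18 hours, -0.01, 0.07 and -0.02 at 1 week and -0.30, -0.15 and -0.02 at 4 weeks in OPP mice. In water mice Mcm6 had 0.43, 0.55 and 0.46 at 18 hours, -0.10, -0.21 and -0.16 at 1 week and -0.19, 0.02 and 0.01 at 4 weeks. It fell by 0.38 in OPP mice and 0.54 in water mice on that probe, and its other 2 probes were not called. Cdt1 had 0.38, 0.32 and 0.26 at 18 hours, -0.19, -0.16 and -0.44 at 1 week and -0.56, -0.10 and 0.07 at 4 weeks in OPP mice. In water mice Cdt1 had 0.66, 0.53 and -0.04 at 18 hours, 0.23, 0.20 and 0.04 at 1 week and -0.16, -0.48 and -0.17 at 4 weeks. It fell by 0.52 in OPP mice and 0.65 in water mice (SE 0.16 each), and 1 water array at 18 hours, at -0.04, lay among the later ones. Mcm4 and Mcm2 differed by -0.14 and -0.19 in OPP mice and fell by 0.62 and 0.37 in water mice. Birc5 fell with both drinks on different probes, by 0.31 in OPP mice and 0.35 in water mice. Mad2l1 (-0.44), Ccna2 (-0.38) and Ccne1 (-0.37) fell in OPP mice, and Cdk2 rose there on 2 of 4 probes (0.45 and 0.27).

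Over the first week 3 members fell and 1 rose in OPP mice (6.25% of probes fell, against 2.61% of all, and 3.12% rose, against 14.7%). In water mice 6 fell (9.38%, against 2.66% of all). Those in OPP mice were Mcm5 (-0.81), Cdt1 (-0.58), Birc5 (-0.35) and, rising, Cdk2 (0.55). Those in water mice were Mcm5 (-1.22), Mcm6 (-0.64), Mcm4 (-0.48), Mcm2 (-0.36), Birc5 (-0.33) and Cdc6 (-0.31). Mcm3 and Mcm7 passed in no liver comparison, while the other 4 helicase genes passed in water mice. Between 1 and 4 weeks no member passed with either drink, with or without the acinar-high array, where 1 probe of all passed each (0.00417%), and 3 member probes in OPP mice (4.69%, against 6.70% of all) and 4 in water mice (6.25%, against 7.19% of all) had an unadjusted p under 0.05. Those of smallest p were Mcm3 (-0.23), Cdk2 (-0.23), Cdc25c (-0.20) and Birc5 (-0.19) in OPP mice, and Tyms (0.25), Cdt1 (-0.42), Cenpa (-0.38) and Bub1b (0.29) in water mice, with adjusted p of 0.545 or more by limma.

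**Figure D5:**
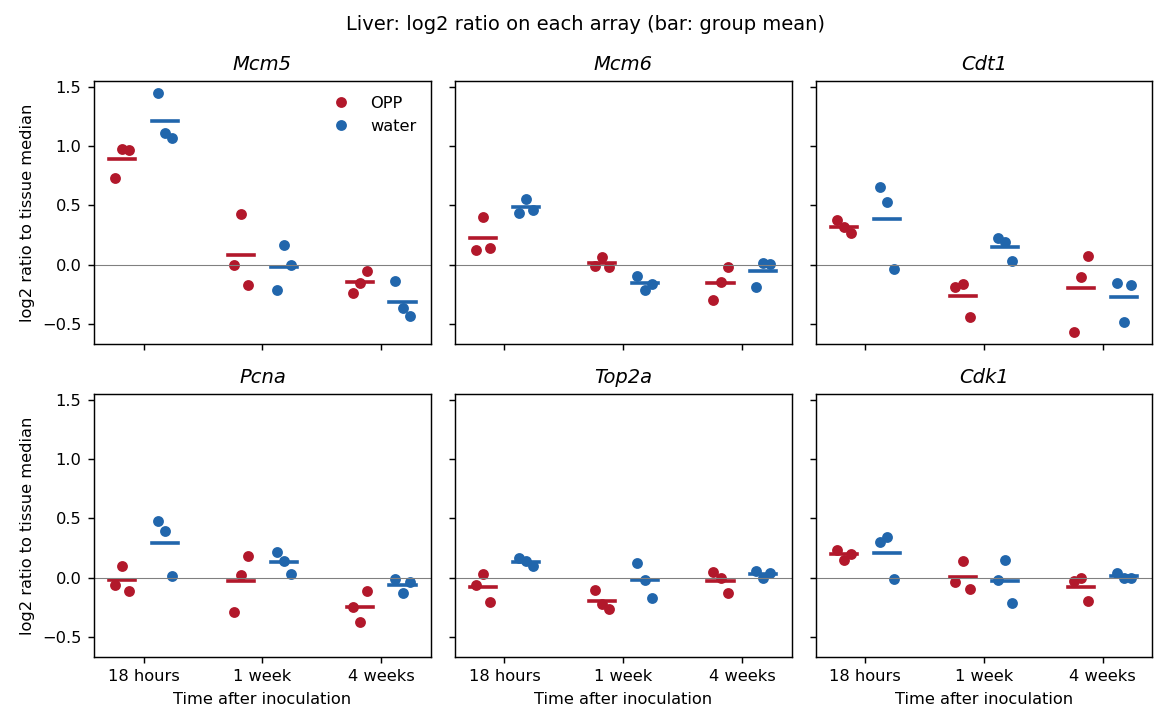
log2 ratio of 6 members on each liver array by time after inoculation, with OPP arrays left of water arrays and a bar at the group mean; for genes of several probes the one with the widest range of group means is drawn. Mcm5 lies at 0.42 or below at 1 and 4 weeks and at 0.73 to 1.45 at 18 hours, and Pcna, Top2a and Cdk1 stay within -0.37 to 0.48.

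Pcna, Rrm2, Cdk1 and Top2a passed in no liver comparison. Pcna had -0.06, 0.10 and -0.11 at 18 hours, -0.29, 0.03 and 0.18 at 1 week and -0.24, -0.37 and -0.11 at 4 weeks in OPP mice. In water mice Pcna had 0.48, 0.39 and 0.01 at 18 hours, 0.22, 0.14 and 0.03 at 1 week and -0.01, -0.12 and -0.04 at 4 weeks. The 4 week arrays of Pcna lay below the 18 hour arrays with both drinks, with no call. Cdk1 on its probe that moved in the spleen had 0.24, 0.15 and 0.20 at 18 hours, -0.03, 0.14 and -0.09 at 1 week and -0.03, 0.00 and -0.20 at 4 weeks in OPP mice. In water mice it had 0.30, 0.34 and -0.01 at 18 hours, -0.02, 0.15 and -0.21 at 1 week and 0.04, 0.00 and 0.00 at 4 weeks. These arrays overlapped between 4 weeks and 18 hours in water mice and not in OPP mice. Top2a had -0.06, 0.03 and -0.21 at 18 hours, -0.10, -0.22 and -0.27 at 1 week and 0.05, 0.00 and -0.13 at 4 weeks in OPP mice. In water mice Top2a had 0.16, 0.14 and 0.09 at 18 hours, 0.12, -0.02 and -0.17 at 1 week and 0.05, 0.00 and 0.04 at 4 weeks. Both probes of Rrm2 lay between -0.30 and 0.26 on all 18 liver arrays.

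Among 35 other replication genes Uhrf1, which guides maintenance methylation behind the fork, fell between 18 hours and 4 weeks by 0.79 in OPP mice and 1.10 in water mice, and the primase gene Prim1 fell by 0.47 in OPP mice and 0.78 in water mice. In all, 5 of these genes fell and 1 rose in OPP mice (9.80% and 1.96% of probes, against 3.16% and 13.7% of all). In water mice 5 fell and 1 rose (9.80% and 3.92%, against 3.29% of all probes that fell and 5.91% that rose). Leukocyte genes moved over the same interval. Of 12 neutrophil genes 4 fell with each drink (26.7% of probes, against 3.16% of all in OPP mice and 3.29% in water mice). Among them S100a8 had -2.76 in OPP mice and -2.42 in water mice. Of the macrophage and Kupffer cell genes, Marco, a macrophage receptor, fell (-3.38 in OPP mice and -3.48 in water mice). The median of that whole list moved less. It ran from 0.11 to 0.20 in OPP mice and 0.06 to 0.35 in water mice at 18 hours. At 4 weeks it ran from -0.10 to -0.005 in OPP mice and -0.07 to 0.12 in water mice. The leukocyte list median in liver ran from 0.21 to 0.38 in OPP mice and 0.18 to 0.47 in water mice at 18 hours, from -0.16 to 0.00 in OPP mice and -0.08 to 0.17 in water mice at 1 week, and from -0.27 to -0.05 in OPP mice and -0.03 to 0.00 in water mice at 4 weeks. The Kupffer cell gene Clec4f rose by 2.08 in OPP mice and 1.96 in water mice. The part of these cells in the fall of Mcm5, Mcm6 and Cdt1 was not tested.

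No member passed the comparison of OPP with water in the liver, at 18 hours, 1 week or 4 weeks, where 0%, 0.926% and 0.0625% of all probes passed, and the F test over times called none (0.108% of all). The medians for S phase and G2/M were -0.09 and 0.02 at 18 hours, 0.05 and -0.01 at 1 week and -0.02 and -0.03 at 4 weeks (-0.03 and -0.07 without the acinar-high array). The members of smallest p at 18 hours were Mcm6 (-0.26, SE 0.09) and Mcm4 (-0.31, SE 0.11) for S phase and Top2a (-0.21, SE 0.09) and Birc5 (-0.23, SE 0.10) for G2/M, all lower in OPP mice, with adjusted p of 0.564 or more by limma. Mcm5 at 18 hours was lower on every OPP array than on every water array (-0.31, SE 0.14, adjusted p = 0.638 by limma), as were 6 of 64 member probes (9.38%), against 11.1% of all probes. At 1 week they were Mcm3 (0.27), Cdt1 (-0.42), Cenpa (-0.25) and Top2a (-0.17), and at 4 weeks Mcm7 (0.31), Tyms (-0.20), Bub1b (-0.22) and Foxm1 (-0.21). At an unadjusted p under 0.05 there were 6, 4 and 4 member probes at the 3 times (9.38%, 6.25% and 6.25%, against 7.61%, 10.9% and 7.74% of all).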

How the data were processed

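Per the labels' protocols, total RNA was amplified to biotin-labelled cRNA and hybridised to Illumina arrays. The deposited value table holds a linear ratio: the authors divided a probe's value by the median among the 18 arrays of that tissue, as checked on the values. Their background correction, scaling and genome build are not given in the sources used here. A second table of unnormalised signals was not used, because its 72 columns match no sample label, so the planned fit of background-corrected signals was replaced by log2 of the ratios, with no filter or scaling. The number of arrays limits the precision.

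Each tissue was fitted in R 4.3.3 with limma 3.58.1 (group means, 12 residual degrees of freedom, lmFit and eBayes), p-values were adjusted by Benjamini and Hochberg's method across the 23982 probes, and those under 0.05 were called. A gene counts as called if 1 probe is. The script was tested on simulated data. The platform annotation gave 19344 probes 1 symbol and 4638 none. Named in each comparison were all called members up to 12, else the 6 largest in each phase, and the 2 of smallest p in each phase where none was called; Mcm5, Pcna, Rrm2, Cdk1 and Top2a and the 3 members of widest range were given throughout, as were up to 4 called genes of other lists. The members and lists were chosen with earlier results of these data known.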

Additional observations from a re-analysis of the deposited data

Results flagged for a closer look

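Some members moved in opposite directions in the 2 tissues on every array of a comparison. The share of all probes that did so was not recorded, so these members have no background beside them. Between 18 hours and 4 weeks in OPP mice, 36.2% of all probes rose without overlap of arrays in the spleen. In the liver 8.11% of all fell in that way. The difference between tissues was not tested, and values of the tissues are ratios to separate medians. The values are spleen minus liver differences on the log2 scale. Between 18 hours and 4 weeks in OPP mice they were 2.23 for Mcm5 and for Birc5 (1.72 on a second Birc5 probe), 1.98 for Prc1, 1.95 for Cdk1, 1.88 for Ccne1, 1.84 for Cdc6, 1.64 for Cdt1, 1.58 and 1.32 for 2 probes of Mcm6, 1.47 for Ccna2, 1.46 for Tpx2 and 1.43 for Mad2l1. Of these, Mcm5, Birc5, Ccne1, Cdt1, Mcm6, Ccna2 and Mad2l1 passed the test in both tissues, rising in spleen and falling in liver.

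Over the same interval in water mice they were 2.09 for Mcm5, 1.56 and 1.25 for 2 probes of Birc5, 1.45 for Cdt1, 1.39 for Mcm4, 1.38 for Ccna2, 1.36 for Pcna, 1.35 for Mcm6, 1.31 for Mcm2, 1.28 for Cdc6, 1.12 for Ube2c and 0.97 for Top2a. Mcm5, Birc5, Cdt1, Mcm4, Mcm6 and Mcm2 passed in both tissues. Between 18 hours and 1 week in OPP mice they were 1.57 for Mcm5, 1.48 for Cdt1, 1.36 and 1.28 for 2 probes of Birc5, 1.34 for Ccne1, 1.19 for Cdk1 and 1.08 for Mcm6, with Mcm5, Cdt1 and Birc5 passing in both tissues. Between 1 and 4 weeks they were 0.64 for Mcm3 in OPP mice, and 0.86 for Cenpa and 0.82 for Pcna in water mice. For OPP against water at 4 weeks it was 0.29 for 1 probe of Tyms. In these comparisons Pcna passed in the spleen only, and Mcm3, Cenpa and that probe of Tyms passed in neither tissue.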

How the results depend on the processing

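No result of a named gene reversed, but many lost their call. With each array left out in turn, 160 such results lost it and 524 kept their status. The OPP against water medians in the spleen at 1 week, where no member was called, turned negative without water replicate 3. The values that follow are counts of member genes called, or medians where named so. The share of all probes called under these alternatives was not recorded, so the counts have no background beside them. With only the arrays compared, the spleen gave 7 genes for OPP against water at 4 weeks, 33 for OPP mice and 0 for water mice between 18 hours and 1 week, and 31 for OPP mice and 1 for water mice between 1 and 4 weeks. With array weights it gave 7 for OPP against water at 4 weeks, 4 for water mice over the first week (G2/M median 0.42) and 27 for OPP mice between 1 and 4 weeks (G2/M median in water mice 0.17), and the liver gave 11 for water mice between 18 hours and 4 weeks and 10 for OPP mice over the first week. With centred arrays the spleen gave 3 for OPP mice and 4 for water mice between 1 and 4 weeks, and the liver 8 for OPP mice over the first week, where the S phase median was -0.02, and up to 4 weeks it was -0.03 (G2/M -0.12). With probes averaged per gene the spleen gave 9 for OPP mice between 1 and 4 weeks and 0 for water mice over the first week, and the liver S phase medians between 18 hours and 4 weeks were -0.04 in OPP mice and -0.13 in water mice (-0.11 over the first week). Without the 3 hepatocyte-high spleen arrays, an alternative chosen after seeing the data, the counts were 0 for OPP mice and 0 for water mice over the first week, 7 for OPP mice between 1 and 4 weeks and 0 for water mice between 18 hours and 4 weeks (G2/M median 0.39). The single water array left at 18 hours is assumed to vary like the other groups.

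Leaving out each array in turn gave, in the spleen, 1 to 21 genes for OPP mice and 0 to 30 for water mice over the first week (S phase median 0.23 to 0.67, G2/M 0.07 to 0.51 in water mice). Between 1 and 4 weeks it gave 4 to 10 for OPP mice and 3 to 23 for water mice (S phase 0.09 to 0.51, G2/M 0.11 to 0.56 in water mice). For OPP against water at 1 week the medians were -0.11 to 0.31 for S phase and -0.12 to 0.32 for G2/M. In the liver it gave 2 to 7 genes for OPP mice and 3 to 5 for water mice over the first week, and 3 to 7 for each drink between 18 hours and 4 weeks. Liver S phase medians were 0 to 0.07 for OPP against water at 1 week and -0.07 to 0.01 at 4 weeks. Between 18 hours and 4 weeks they were -0.04 to 0.03 in OPP mice and -0.10 to -0.04 in water mice, between 1 and 4 weeks -0.11 to -0.03 in OPP mice (G2/M -0.03 to 0.02) and -0.03 to 0.03 in water mice, and over the first week -0.10 to -0.03 in water mice (G2/M -0.14 to -0.05). The cause of these changes was not tested.

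Replicate numbers were not treated as pairs, because in no comparison did all 3 same-numbered pairs correlate above 0.1. OPP mice in the liver between 18 hours and 4 weeks came near, at 0.1002, 0.0984 and 0.1555. Spleen and liver arrays of the same number were not compared, so the check does not exclude pairing. With the replicate number as a block all 20 counts stayed within 1.5 times, for example 17 genes for OPP mice over the first week in the spleen. Fits of background-corrected signals with a detection filter, and with the slide as a block, were not run, because the columns of unnormalised signals match no label. Ratios hold no signal over background, so dim probes cannot be set apart.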
